A study of Mus musculus with 9 samples.

Results

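The phagocyte NADPH oxidase, the enzyme with which macrophages and neutrophils make superoxide, was followed through 5 of its subunit genes: Cybb, Cyba, Ncf1, Ncf4 and Rac2. They were taken from the 22001 gene rows of a count table by matching each mouse Ensembl identifier to its symbol, and 5 of 5 were found. RNA sequencing had been done on bone marrow-derived macrophages, which are phagocytes cultured from marrow precursors, of C57BL6 mice. The 9 libraries form 3 groups of 3, each harvested at 6 h. The first group was untreated (PBS, codes A2, B2 and C2), the second was given Pam3CSK4 at 100 µg/ml (D1, D2 and D3), and the last was given Pam3CSK4 with 3SL at 100 µl/ml (A2plus, B2plus and C2plus). Pam3CSK4 is a synthetic lipopeptide that activates Toll-like receptors. These names come from the sample descriptions. For the last group the titles write Pamc4-3SL and the treatment tag Pamc4-CSL, so the labels do not agree on what it received. 3SL is taken to be the milk sugar 3'-sialyllactose, and its dose is stated as a volume, so the amount is unknown. The labels do not state whether replicate libraries stem from separate cultures or mice, so p-values measure the spread between these libraries, which may be technical.

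In a resting phagocyte the parts of the oxidase are kept separate. A flavocytochrome in the membrane, made of the catalytic chain encoded by Cybb (gp91phox, also called NOX2) and its smaller partner encoded by Cyba (p22phox), carries electrons from NADPH to oxygen. The organiser encoded by Ncf1 (p47phox) and the adaptor encoded by Ncf4 (p40phox) wait in the cytosol. On stimulation kinases phosphorylate the organiser, the cytosolic complex moves to the membrane, and a Rac GTPase, Rac2 in many leukocytes, joins it. Loss of any of several of these subunits causes chronic granulomatous disease, in which phagocytes fail to kill certain microbes.

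Total counts ran from 7472482 to 43980309 per library, and a level in CPM is a gene's count divided by its library's size, after scaling of the sizes with TMM factors and on the usual CPM scale. The inflammatory genes went against the group names: Il1b, a cytokine gene that lipopeptides are known to raise, stood at 10160 ± 457 CPM in the libraries labelled untreated, 6.23 ± 1.68 CPM in those labelled Pam3CSK4 and 8136 ± 565 CPM in those labelled Pam3CSK4 plus 3SL (SD, n = 3 each). The groups are therefore named by their labels (untreated-labelled, Pam3CSK4-labelled, 3SL-labelled), and every direction rests on those labels. The Pam3CSK4-labelled libraries alone carry the code letter D, so that group and that letter cannot be told apart. Of the genes that mark macrophages, Adgre1 (F4/80) stood at 4300 CPM in the untreated-labelled, 1296 CPM in the Pam3CSK4-labelled and 4207 CPM in the 3SL-labelled libraries, and Csf1r, the receptor for macrophage colony-stimulating factor, at 1990, 1597 and 2130 CPM. All but 1 or 2 of 16 markers of neutrophils and their precursors were also above 1 CPM in each group, so presence alone does not tell these cells apart. Because these are bulk libraries, fewer cells of a type and less RNA per cell cannot be told apart.

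All 5 genes are protein-coding, and their positions follow GENCODE M21 (mouse build GRCm38). Cybb (ENSMUSG00000015340) lies on chromosome X from 9435252 to 9487771, and Cyba (ENSMUSG00000006519) on chromosome 8 from 122424776 to 122432930. Ncf1 (ENSMUSG00000015950) lies on chromosome 5 from 134220053 to 134229625. Ncf4 (ENSMUSG00000071715) and Rac2 (ENSMUSG00000033220) share chromosome 15, from 78244801 to 78262580 and from 78559167 to 78572783. Counts of a member ran from 1457 to 187634 in a library, and 5 of 5 passed the filter on low counts that 11469 genes (52.1%) passed. Of the exon bases of Ncf1, 11.1% lie opposite exons of Gtf2ird2, and the strand setting of the counting was not given in the sources used here.

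RefSeq starts with promoter sequence were matched for 3 of the 5 members, Cybb, Cyba and Ncf1 (build GRCm38.p6). The 250 bases before each start are printed below because these genes moved together by very different amounts, as described further on. The windows are chrX:9469325-9469574, chr8:122432941-122433190 and chr5:134229626-134229875, all on the minus strand. The Cybb window lies within the GENCODE span of that gene given above. Its RefSeq start is therefore not the outermost GENCODE start, and the matches below hold for the RefSeq start alone. Capitals mark each match to an interferon-response motif, GAAA followed by any 2 bases and GAAA, searched on both strands.
Cybb: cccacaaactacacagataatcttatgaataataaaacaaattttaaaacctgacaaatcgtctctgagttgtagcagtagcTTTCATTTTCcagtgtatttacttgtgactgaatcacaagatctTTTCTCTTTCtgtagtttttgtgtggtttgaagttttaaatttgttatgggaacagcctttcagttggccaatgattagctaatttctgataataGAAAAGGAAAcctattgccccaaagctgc
Cyba: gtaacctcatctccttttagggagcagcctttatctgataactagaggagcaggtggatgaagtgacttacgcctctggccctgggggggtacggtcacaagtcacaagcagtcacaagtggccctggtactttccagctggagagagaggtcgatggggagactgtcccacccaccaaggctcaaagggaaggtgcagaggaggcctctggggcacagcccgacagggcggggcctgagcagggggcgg
Ncf1: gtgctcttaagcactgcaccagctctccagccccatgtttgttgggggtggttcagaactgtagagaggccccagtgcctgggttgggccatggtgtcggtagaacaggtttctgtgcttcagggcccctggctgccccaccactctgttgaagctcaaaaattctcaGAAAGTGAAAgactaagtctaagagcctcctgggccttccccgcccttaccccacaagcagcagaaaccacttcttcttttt

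The Cybb window held 3 interferon-response matches, at 168 to 159 and 124 to 115 bases before the start on the opposite strand and at 29 to 20 bases on the gene's own strand. The Ncf1 window held 1, at 82 to 73 bases, and the Cyba window held none. Of 32851 mouse promoter windows of this length, 978 (2.98%) held the motif. CCAAT was found in the Cybb window, at 56 to 52 bases, and in 33.8% of all windows. GGGA followed by any 4 bases and CC, a loose form of the NF-κB site, was found in all 3 windows and in 17.6% of all windows. Neither AGGAAG, a strict form of the site for ETS factors such as PU.1 (29.5% of all windows), nor TATAAA (12.4%) was found in any of the 3. Shorter forms of the ETS site were not searched. A match is only a run of letters, and its absence says nothing about whether a factor binds.

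In CPM after TMM scaling, all 5 subunits were lower in the Pam3CSK4-labelled libraries than in the other 6. For Cyba the difference from the 3SL-labelled libraries depended on that scaling, as given further on. The catalytic chain of the membrane pair fell the most. Cybb stood at 4741, 4663 and 4829 CPM in the untreated-labelled libraries A2, B2 and C2. In the Pam3CSK4-labelled libraries D1, D2 and D3 it stood at 772, 779 and 752 CPM. In the 3SL-labelled libraries A2plus, B2plus and C2plus it stood at 4317, 4336 and 4634 CPM. The Pam3CSK4-labelled libraries were far below all others, and the 3SL-labelled libraries were each a little below the lowest untreated-labelled one. By group, Cybb ranked 14th, 103rd and 17th by CPM among the tested genes. It was 6.18-fold lower in the Pam3CSK4-labelled than in the untreated-labelled libraries, a log2 change of -2.63 ± 0.030 (SE) with adjusted p = 4.84e-31 by the quasi-likelihood test of edgeR (Benjamini-Hochberg over all tested genes).

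Its membrane partner changed the least of the 5. Cyba stood at 535, 547 and 512 CPM in A2, B2 and C2, and at 386, 390.0 and 389 CPM in D1, D2 and D3. In A2plus, B2plus and C2plus it stood at 462, 498 and 450.1 CPM. The 3 groups did not overlap, and the 3SL-labelled libraries lay between the other groups. Cyba was 1.37-fold lower in the Pam3CSK4-labelled than in the untreated-labelled libraries (log2 change -0.45 ± 0.0361, SE; edgeR quasi-likelihood test, Benjamini-Hochberg adjusted p = 6.68e-12).

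The genes of the cytosolic subunits fell by amounts between these. Ncf1, the organiser, stood at 655, 640.2 and 643 CPM in A2, B2 and C2, at 278, 269 and 293 CPM in D1, D2 and D3, and at 588, 613 and 625 CPM in A2plus, B2plus and C2plus. Ncf4, the adaptor, stood at 354, 349.6 and 332 CPM in A2, B2 and C2, at 118, 109 and 111 CPM in D1, D2 and D3, and at 325, 334 and 331 CPM in A2plus, B2plus and C2plus. For both genes the Pam3CSK4-labelled libraries lay apart below the other 6, and for Ncf4 the other groups overlapped. Against the untreated-labelled libraries, Ncf1 was 2.31-fold lower in the Pam3CSK4-labelled ones (log2 change -1.21 ± 0.0347, SE) and Ncf4 was 3.07-fold lower (-1.62 ± 0.0388, SE). Adjusted p was 6.04e-22 for Ncf1 and 9.62e-24 for Ncf4 by the quasi-likelihood test of edgeR (Benjamini-Hochberg).

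Rac2, the GTPase of the active complex, stood at 631, 655 and 654 CPM in A2, B2 and C2, and at 190.3, 186 and 182 CPM in D1, D2 and D3. In A2plus, B2plus and C2plus it stood at 702, 718 and 690.3 CPM. It was the member whose highest values were in the 3SL-labelled libraries, each of them above every untreated-labelled one. Rac2 was 3.47-fold lower in the Pam3CSK4-labelled than in the untreated-labelled libraries (log2 change -1.79 ± 0.0332, SE; edgeR quasi-likelihood test, Benjamini-Hochberg adjusted p = 2.03e-26).

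**Figure D1:**
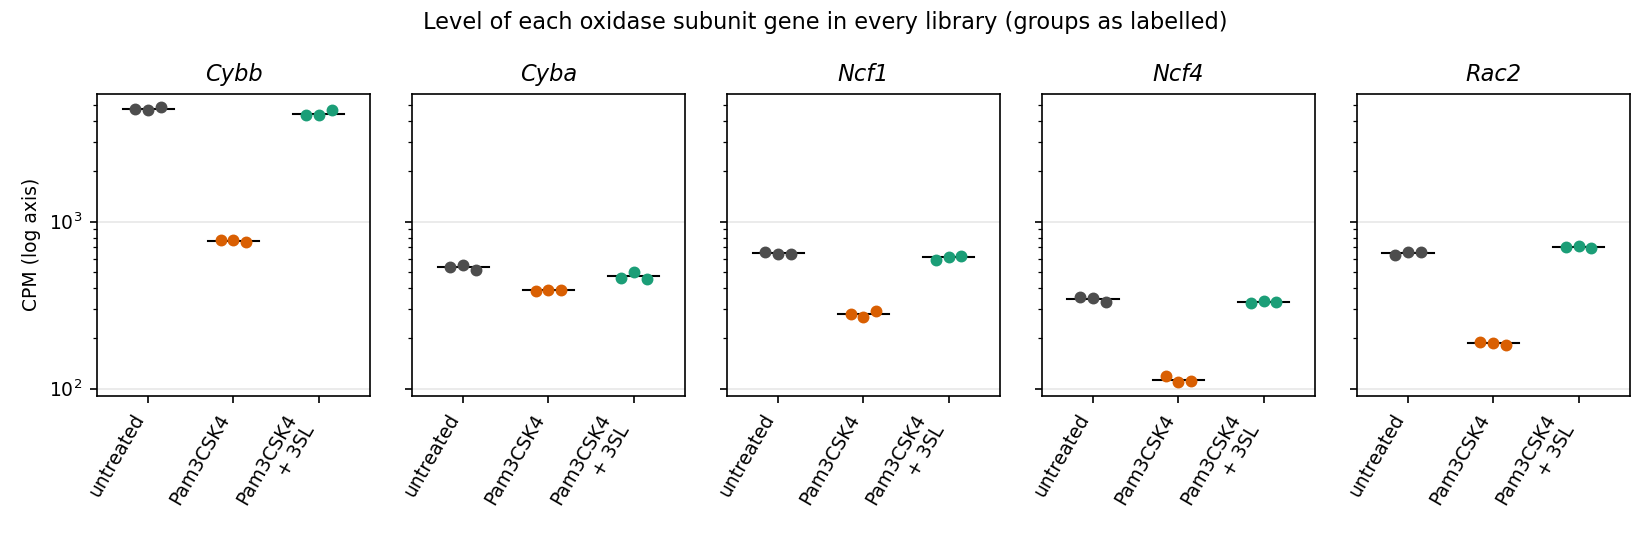
Level of the 5 subunit genes in every library, in CPM on a log axis. Each point is a library, the bar is the mean of the 3 libraries of a labelled group. The Pam3CSK4-labelled points lie below the other 6 for each of the 5 genes, with the widest gap for Cybb and the narrowest for Cyba.

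Of the 5 members, 5 were called lower and 0 higher in the Pam3CSK4-labelled against the untreated-labelled libraries, where 35.9% of all tested genes were called lower and 39% higher. A fall of at least 2-fold was reached by 4 of 5, Cyba being the exception, and by 10.8% of all tested genes. With library size alone in place of TMM scaling Ncf1 also missed it (-0.90), which left 3 of 5. The members' median log2 change was -1.62, beside 0.0271 for all tested genes. In this comparison 76% of all tested genes had groups that did not overlap, so the gap between the groups is not a mark of these genes. That scaling moved the median of all tested genes to 0.341, and the 5 members were still called lower under it.

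The 3SL-labelled libraries are compared next with the same Pam3CSK4-labelled libraries, so the values of this comparison are not independent of those above. Here 5 of 5 members were called higher, beside 34.7% of all tested genes called higher and 36.8% called lower. The log2 change was 2.53 ± 0.030 for Cybb, 0.28 ± 0.037 for Cyba, 1.12 ± 0.0352 for Ncf1, 1.55 ± 0.0399 for Ncf4 and 1.92 ± 0.0336 for Rac2 (SE). By the quasi-likelihood test of edgeR (Benjamini-Hochberg), adjusted p ran from 1.16e-30 for Cybb to 1.87e-07 for Cyba. A rise of at least 2-fold was reached by 4 of 5 members and by 10.5% of all tested genes, and groups did not overlap for 5 of 5 members and 73.1% of all tested genes. The call of Cyba depended on the scaling: with library size alone its log2 change was 0.00 with adjusted p = 0.948, while the other 4 were still called higher, Ncf1 by less than 2-fold (0.85).

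Between the 3SL-labelled and the untreated-labelled libraries the members differed little, and not in the same direction. Rac2 was called higher, by 1.09-fold (log2 change 0.12 ± 0.0313, SE), while Cyba was called lower by 1.13-fold (-0.18 ± 0.0365) and Cybb by 1.07-fold (-0.10 ± 0.028). Adjusted p was 0.0113, 0.00145 and 0.0229 by the quasi-likelihood test of edgeR (Benjamini-Hochberg). Of all tested genes 3.83% were called higher and 5.11% lower, and 24% had groups that did not overlap. Ncf1 was not called although its groups did not overlap (log2 change -0.08, 95% interval -0.15 to -0.01, adjusted p = 0.133 by the same edgeR test). Ncf4 was not called either (-0.06, 95% interval -0.14 to 0.01, adjusted p = 0.326 by the same edgeR test).

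The calls of Cybb and Rac2 in this comparison rested on single libraries. For Cybb the adjusted p of edgeR's quasi-likelihood test was 0.0584 without A2, 0.0878 without C2, 0.155 without A2plus and 0.0972 without B2plus, and 0.169 with library size alone. For Rac2 it was 0.0896 without A2 and 0.0543 without B2plus. Cyba stayed called lower without any of the libraries, with adjusted p of at most 0.0191 by the same edgeR test.

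**Figure D2:**
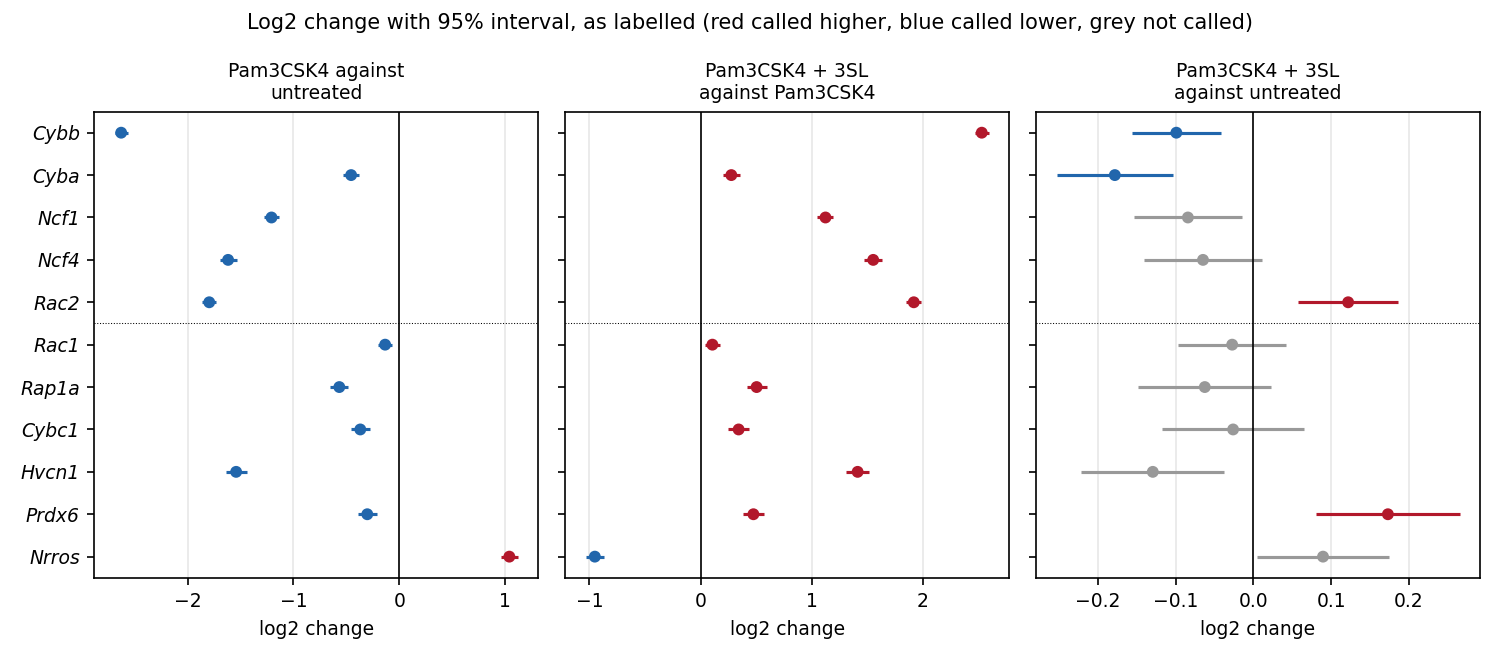
Log2 change of the 5 subunit genes (above the dotted line) and of 6 genes whose products act with the oxidase (below it) in the 3 comparisons of labelled groups, with 95% intervals from edgeR's quasi-likelihood fit. The right panel has a far narrower horizontal scale. The members' changes run from -2.63 for Cybb to -0.45 for Cyba on the left, and from -0.18 for Cyba to 0.12 for Rac2 on the right.

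Levels of different genes can be compared only per length, and CPM was therefore divided by the kilobases of exon in GENCODE M21. On this scale the order in the untreated-labelled libraries was Cybb at 817 ± 14.3, Cyba at 511 ± 17.3, Rac2 at 208 ± 4.398, Ncf1 at 176 ± 2.18 and Ncf4 at 171 ± 5.71 CPM per kb (SD, n = 3). The ranges of Ncf1 and Ncf4 overlapped, and those of the other neighbours in that order did not. The 3SL-labelled libraries kept this order, again with overlap of Ncf1 (166 ± 5.16) and Ncf4 (163 ± 2.25) alone. In the Pam3CSK4-labelled libraries Cyba came first at 374 ± 2.09, followed by Cybb at 132 ± 2.44, Ncf1 at 76.4 ± 3.22, Rac2 at 60.04 ± 1.25 and Ncf4 at 55.9 ± 2.41 CPM per kb (SD, n = 3). The exon length counts every annotated isoform, so the scale is rough for a gene that uses few of them.

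The length-scaled levels of the 5 genes were summed in each library and each gene's share was taken. Cybb made up 43.4 ± 0.929% of that sum in the untreated-labelled libraries, 18.9 ± 0.352% in the Pam3CSK4-labelled and 43.0 ± 1.47% in the 3SL-labelled ones (SD, n = 3). Cyba made up 27.1 ± 0.815%, 53.5 ± 0.419% and 25.5 ± 1.29%. The membrane partner thus had the larger share of the pair in the Pam3CSK4-labelled libraries and the smaller one elsewhere. The shares of the other genes moved less: Ncf1 lay between 9.36% and 10.9% and Ncf4 between 8.0% and 9.23% as group means, and Rac2 between 8.6% and 12.8%.

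**Figure D3:**
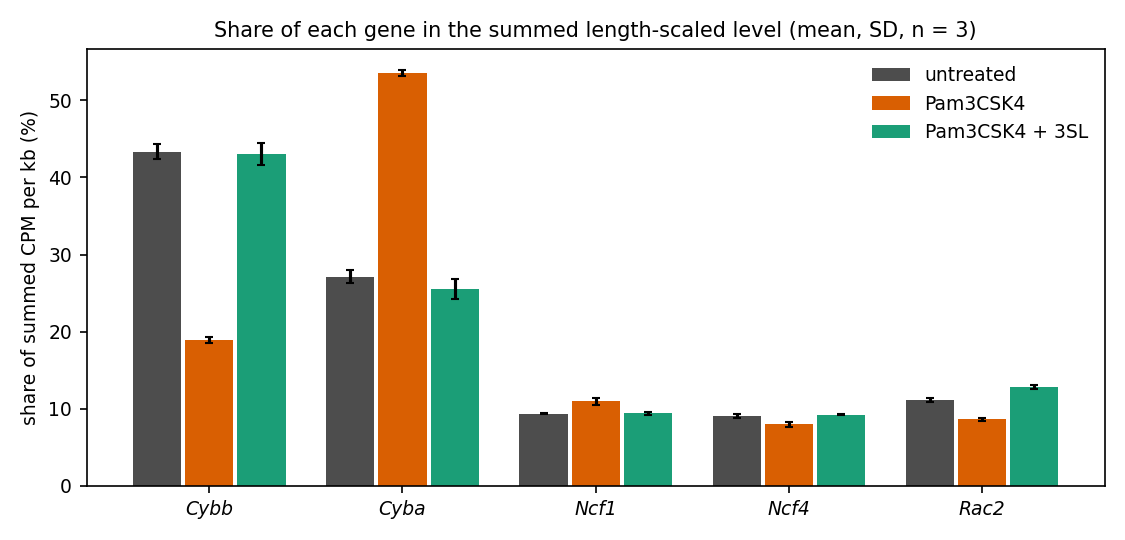
Share of each subunit gene in the summed CPM per kb of the 5 genes, in percent, as the mean of the 3 libraries of a labelled group with SD bars. The shares of Cybb and Cyba change places in the Pam3CSK4-labelled libraries, at 18.9% and 53.5%, against 43.4% and 27.1% in the untreated-labelled ones.

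Ratios of counts within a library do not depend on the scaling between libraries, and all 4 that were taken differed between the Pam3CSK4-labelled and the other libraries without overlap. The count of Cybb was 8.87, 8.52 and 9.44 times that of Cyba in A2, B2 and C2, and 9.35, 8.70 and 10.3 times in A2plus, B2plus and C2plus. In D1, D2 and D3 it was 2.0, 2.0 and 1.93 times. The Pam3CSK4-labelled ratios lay far below the rest, and the other groups overlapped. The mean ratio was 1.98 ± 0.0384 in the Pam3CSK4-labelled libraries and 8.94 ± 0.463 in the untreated-labelled ones (SD, n = 3).

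Relative to Ncf4 and Cybb, the organiser gene was highest in the Pam3CSK4-labelled libraries. The ratio of Ncf1 to Ncf4 was 1.87 ± 0.0554, 2.48 ± 0.139 and 1.84 ± 0.0394 in the untreated-labelled, Pam3CSK4-labelled and 3SL-labelled libraries (SD, n = 3). That of Ncf1 to Cybb was 0.136 ± 0.00274, 0.365 ± 0.0222 and 0.138 ± 0.00342. In both ratios the Pam3CSK4-labelled libraries lay above all others, and the untreated-labelled and 3SL-labelled libraries overlapped.

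Rac2 and Rac1 encode near-identical GTPases, either of which can serve the oxidase. The ratio of Rac2 to Rac1 was 1.71, 1.74 and 1.71 in A2, B2 and C2, but 0.561, 0.539 and 0.534 in D1, D2 and D3, so that Rac1 had the higher count in the Pam3CSK4-labelled libraries. It was 1.91, 1.89 and 1.93 in A2plus, B2plus and C2plus, above every untreated-labelled library. Rac1 shares 51.4% of its exon bases with Daglb on the opposite strand, and reads of those genes may not have been kept apart. Paralogs of such likeness may also share reads.

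Over the 4 ratios and 3 pairs of groups, 12 exact two-sided permutation tests were run, in which 3 libraries against 3 cannot give p below 0.1. Every comparison with the Pam3CSK4-labelled libraries reached that smallest p of 0.1 (0.133 after Benjamini-Hochberg adjustment), as did Rac2 to Rac1 between the 3SL-labelled and untreated-labelled libraries. In the latter comparison the exact permutation p was 0.5 for Cybb to Cyba, 0.6 for Ncf1 to Ncf4 and 0.6 for Ncf1 to Cybb.

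**Figure D4:**
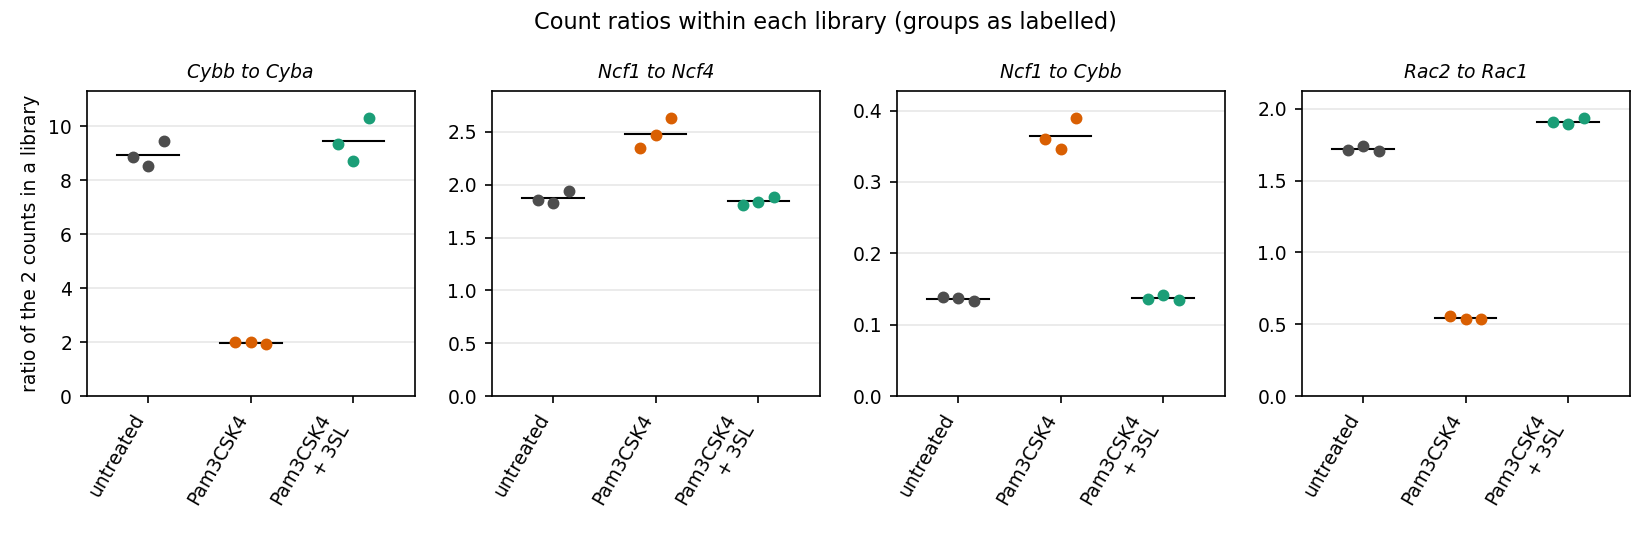
Ratio of the counts of 2 genes within each library, for 4 pairs. Each point is a library, the bar is the mean of a labelled group, and each axis starts at 0. The Pam3CSK4-labelled points stand apart in all 4 panels, and the 3SL-labelled points stand apart from the untreated-labelled ones for Rac2 to Rac1 (1.91 against 1.72 on average).

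Most of the listed partner genes of the oxidase were also called lower in the Pam3CSK4-labelled libraries, though some of these calls depended on the scaling. Of the 6 genes listed as partners, 5 were called lower and 1 higher in the Pam3CSK4-labelled against the untreated-labelled libraries. The shares of all tested genes were 35.9% lower and 39% higher. Hvcn1, the proton channel that balances the charge the oxidase moves, had a log2 change of -1.54. Rap1a, a GTPase found with the flavocytochrome, had -0.57, and Cybc1, a chaperone of the membrane pair, -0.37. Prdx6, a peroxiredoxin that also supports oxidase activity, had -0.30, and Rac1 had -0.13. Nrros, whose product limits the amount of the catalytic chain, was higher by 1.04, from 140.3 ± 4.10 to 289 ± 10.3 CPM (SD, n = 3). With library size alone 2 were called lower and 2 higher, and the direction of Rac1 (0.18) and Prdx6 (0.01) turned. That scaling called 2380 of all 11469 tested genes lower and 6882 higher. Against the untreated-labelled libraries, the 3SL-labelled ones had 1 of 6 called higher, Prdx6 (0.17), and 0 lower. There 3.83% of all tested genes were called higher and 5.11% lower.

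Among 9 genes of the other NADPH oxidases and their helpers, Nox1 alone was tested. It had 133, 420 and 84 counts in A2, B2 and C2, 2, 3 and 1 counts in D1, D2 and D3, and 63, 120 and 93 counts in A2plus, B2plus and C2plus. In CPM it was 9.26 ± 1.05, 0.136 ± 0.0521 and 10.02 ± 1.53 (SD, n = 3), and the Pam3CSK4-labelled libraries were at or under 3 counts, a floor at which low expression and absence look the same in a library.

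Of 17 genes for kinases that phosphorylate the cytosolic subunits or lie upstream of them, 11 were called lower and 3 higher in the Pam3CSK4-labelled against the untreated-labelled libraries (median log2 change -0.37). That comparison called 35.9% of all tested genes lower and 39% higher. With library size alone the split was 8 lower and 5 higher, beside 2380 lower and 6882 higher of all 11469 tested genes. Syk, a kinase below Fc receptors and C-type lectins, went from 1542 to 282 CPM (log2 change -2.45). Pik3r5, a regulatory subunit of phosphoinositide 3-kinase gamma, went from 739 to 148 CPM (-2.32), and Prkcd, a protein kinase C, from 938 to 225 CPM (-2.06). In the 3SL-labelled libraries these stood at 1519, 735 and 882 CPM. Against the untreated-labelled libraries 1 of the 17 was called higher there and 0 lower, beside 3.83% and 5.11% of all tested genes.

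The regulators of Rac were split. Of 14 genes for Rac exchange factors and inhibitors, which turn Rac on or hold it off, 9 were called higher and 4 lower (median log2 change 0.69), beside 39% higher and 35.9% lower of all tested genes. With library size alone the split was 9 higher and 3 lower, beside 6882 higher and 2380 lower of all 11469 tested genes. Arhgap25, a GTPase-activating protein that turns Rac off, was higher by 1.77. Arhgdib, an inhibitor that holds Rac in the cytosol, was lower (-0.97), as was Vav1, an exchange factor that turns Rac on (-0.93). Between the 3SL-labelled and untreated-labelled libraries 5 of 14 were called higher in the former, Vav1 among them (0.21), and 0 lower. In that comparison 3.83% of all tested genes were called higher and 5.11% lower.

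Of 16 transcription factors known from work on the oxidase genes, 13 were tested, and 7 were called lower and 2 higher in the Pam3CSK4-labelled against the untreated-labelled libraries. In that comparison 35.9% of all tested genes were called lower and 39% higher. Nfkb1, a subunit of NF-κB, had a log2 change of -2.61, and Cebpb, a factor of macrophage activation, -3.31. Cebpa, a factor of myeloid differentiation, was higher by 2.18. A further 3 were picked after their values were seen, because they bear on the motifs searched above. Spi1, which encodes the ETS factor PU.1, went from 652 ± 15.5 to 262 ± 6.42 CPM and stood at 627 ± 16.6 CPM in the 3SL-labelled libraries (SD, n = 3). Irf1 had a log2 change of -1.90, while Irf8 was not called (-0.03, 95% interval -0.11 to 0.06). With library size alone 7 of the 13 were called lower and 5 higher, beside 2380 lower and 6882 higher of all 11469 tested genes.

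Enzymes that remove superoxide and peroxide were split. Of 12 listed, 11 were tested, and 6 were called lower and 3 higher in the Pam3CSK4-labelled against the untreated-labelled libraries. Beside these, 35.9% of all tested genes were called lower and 39% higher. Sod2, the mitochondrial superoxide dismutase, went from 1858 ± 23.6 to 65.9 ± 3.80 CPM (SD, n = 3) and was at 1827 CPM in the 3SL-labelled libraries. Prdx5 and Prdx1, peroxiredoxins, had log2 changes of -2.33 and -0.90. With library size alone the split turned to 4 lower and 7 higher. All 11469 tested genes also shifted that way under it, to 2380 called lower and 6882 higher. Between the 3SL-labelled and untreated-labelled libraries 4 of 11 were called lower, Prdx5 (-0.26) among them, and 2 higher, Prdx1 (0.13) among them. The shares of all tested genes there were 5.11% lower and 3.83% higher.

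**Figure D5:**
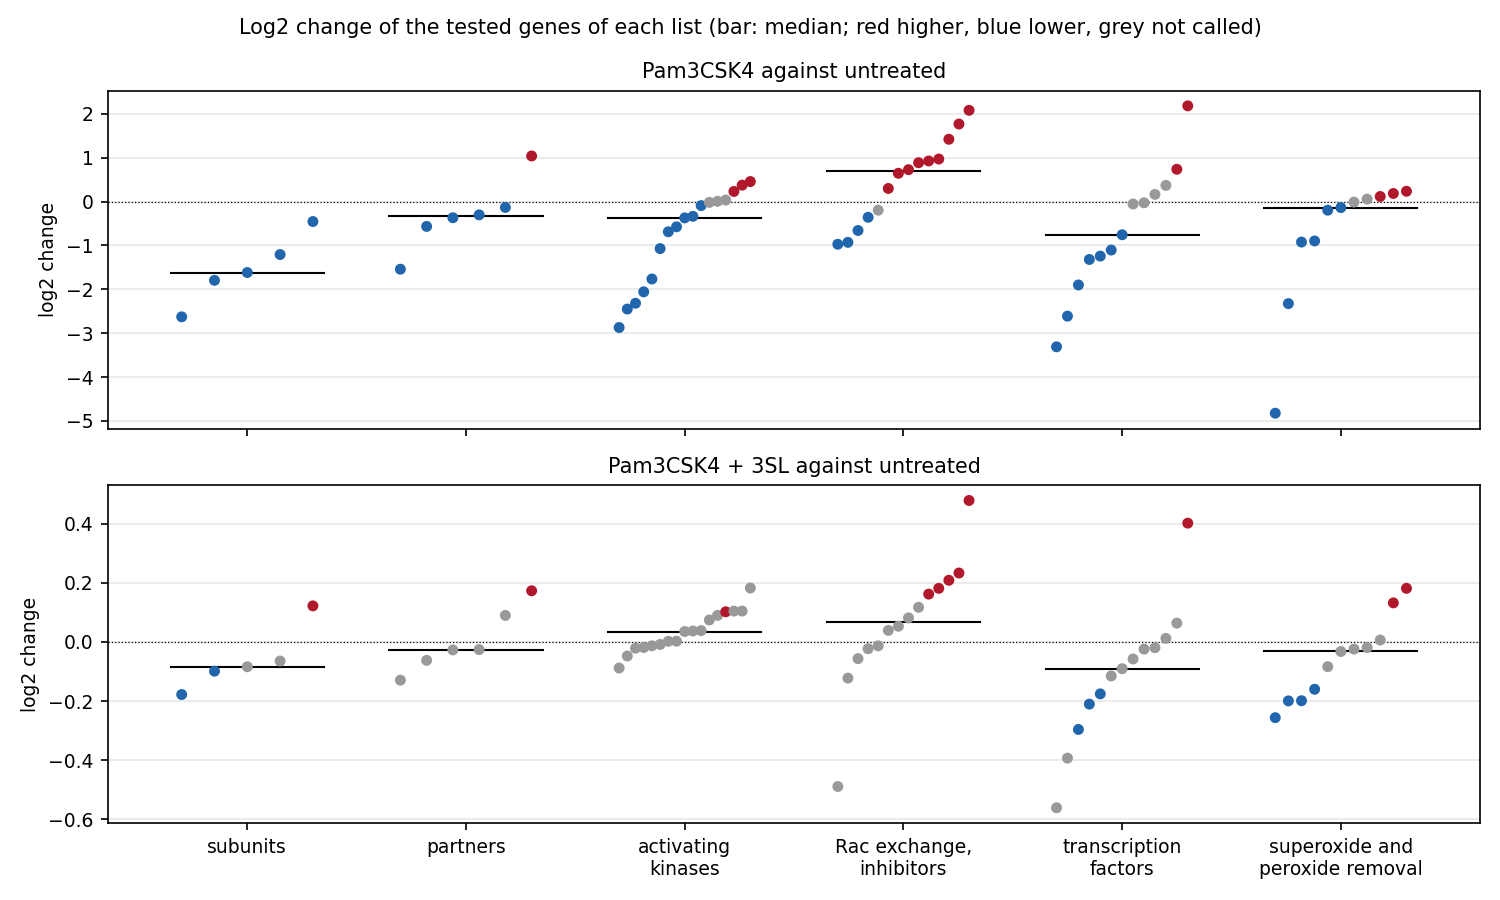
Log2 change of every tested gene of 6 lists in the Pam3CSK4-labelled (top) and 3SL-labelled (bottom) libraries, each against the untreated-labelled ones. Each point is a gene, in order of its change within the list, and the bar is the list's median. The subunits lie below 0 in the top panel with a median of -1.62, the Rac regulators lie mostly above it with a median of 0.69, and the bottom panel spans a far smaller range.

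For each member the 3 tested genes most like it were found by the distance between log2 CPM profiles over the 9 libraries, each profile centred on its own mean. Nearest to Cybb were Fam49a, Lacc1 and Igf2bp2, at distances of 0.14 to 0.166 on the log2 scale. Nearest to Cyba were Litaf, Cstb and Sar1b (0.114 to 0.123), and nearest to Ncf1 were Ptpre, Zyx and Slc12a4 (0.0838 to 0.138). For Ncf4 they were Casp1, which encodes the protease that matures interleukin-1 beta, Sppl2a and Fbxl5 (0.12 to 0.157). For Rac2 they were Ifitm2, the Src-family kinase gene Lyn and Txnrd1, which encodes thioredoxin reductase (0.0744 to 0.103).

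No member was among these neighbours of another. The closest pair of members was Ncf4 and Rac2 at 0.467, then Ncf1 and Ncf4 at 0.605, and the farthest was Cybb and Cyba at 3.14. Pearson's r with the nearest genes was at least 0.979 over the 9 libraries, which share the step between the Pam3CSK4-labelled and the other groups, so it describes that step and is given without a test.

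Markers of other cells that carry the oxidase moved in both directions. The summed level of 16 markers of neutrophils and their precursors was 1390 to 1417 CPM in the untreated-labelled, 507.5 to 652.8 CPM in the Pam3CSK4-labelled and 1290 to 1381 CPM in the 3SL-labelled libraries. Ly6g, which defines mature mouse neutrophils, had 0 to 5 counts in a library. Of the 15 tested markers 8 were called lower and 5 higher in the Pam3CSK4-labelled against the untreated-labelled libraries, with a median log2 change of -0.18. For all tested genes the shares in this comparison were 35.9% lower and 39% higher. The lower sum came mainly from Lcn2 (280.1 to 25.2 CPM), Csf3r (235 to 23.5 CPM) and Mmp9 (168 to 10.4 CPM). Elane and Mpo, granule genes of neutrophil precursors, were called higher, with log2 changes of 1.13 and 1.08. Other granule genes in the list were split. Prtn3 (0.33) and Mmp8 (0.16) were called higher and Ctsg was not called (0.24). Camp (-1.04), Ngp (-0.36) and Ltf (-0.18) were called lower. The 12 macrophage markers summed to 26720 to 27340, 19240 to 19690 and 25760 to 26540 CPM, with 6 called lower and 4 higher. The splits with library size alone were 6 lower and 7 higher for the neutrophil and 3 lower and 6 higher for the macrophage markers. All 11469 tested genes shifted the same way under that scaling, to 2380 called lower and 6882 higher. Sums over dendritic cell, lymphocyte and stromal markers ran from 3.52 to 17.7 CPM over the libraries, with Cd3e at 0 in the Pam3CSK4-labelled and Cd209a at 0 in the 3SL-labelled libraries. The part of these markers in the members' changes was not tested.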

How the data were processed

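The authors deposited 1 table of unnormalised read counts per gene, from which 9 libraries were used; 15 columns of other samples were not used. HISAT2 2.1.0, featureCounts and Subread appear, with no role stated, per the submitters' processing notes, beside the human build hg38, although all 22001 identifiers are mouse Ensembl ones; strand setting and annotation are not given in the sources used here. Per the labels' protocols, RNA was extracted with TRIzol and libraries made with the NEBNext Ultra kit. Symbols were found for 21909 identifiers.

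Groups came from the labels. Counts were filtered with filterByExpr, scaled with TMM and tested with edgeR 4.0.16 (R 4.3.3) by the quasi-likelihood test in 1 model of all 9 libraries, with Benjamini-Hochberg adjustment over 11469 genes and a threshold of 0.05; the biological coefficient of variation was 0.0365. The script was tested on simulated data. At these depths 3 counts in a library equal 0.0746 to 0.422 CPM, a limit of counting error alone. Replicate libraries differed beyond sampling noise (chi-square per degree of freedom 1.83 to 2.91).

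The members, gene lists and tests were chosen with earlier results of these data known. Named were the members, all oxidase partners, the 3 genes with the smallest p in the Pam3CSK4-labelled against untreated-labelled comparison in each other list of oxidase-related genes, and 3 neighbours per member (log2 CPM with a prior count of 2, leaving out unnamed models). Marker genes, Il1b and a few transcription factors were named outside this rule, after their values were seen. Some further genes, with a family list and a count ratio that needed them, are not reported here. Alternatives were other scaling, DESeq2 1.42.0, other filters, the 2 groups alone, thinning to equal depth, a replicate block and leaving out each library. Figures were drawn with matplotlib 3.10.9.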

Additional observations from a re-analysis of the deposited data

How the results depend on the processing

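In the Pam3CSK4-labelled against untreated-labelled and the 3SL-labelled against Pam3CSK4-labelled comparisons, the members' log2 changes kept direction and call in 90 of 90 fits that left out a library and in 69 of 70 fits under other settings. The exception was Cyba with library size alone in place of TMM, where its 3SL-labelled against Pam3CSK4-labelled change was 0.0028 (adjusted p = 0.948, edgeR). That scaling also gave 6882 genes called higher and 2380 lower in the Pam3CSK4-labelled against untreated-labelled comparison, so that 74.3% of calls were higher instead of 52%. It gave 2434 higher and 6393 lower in the 3SL-labelled against Pam3CSK4-labelled comparison (27.6% higher instead of 48.5%), and 788 higher in the 3SL-labelled against untreated-labelled comparison (66% higher instead of 42.8%). It put the change of Cybb in that last comparison at -0.061 (adjusted p = 0.169, edgeR).

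Leaving out each library in turn, the 3SL-labelled against untreated-labelled comparison called 270 to 435 genes higher and 356 to 603 lower, against 439 and 586 with all libraries; the lowest counts came without B2, and 377 lower without A2plus. The log2 change of Cybb ranged from -0.133 to -0.0785 and that of Rac2 from 0.104 to 0.135. The difference of log2 ratios ranged from -0.0395 to 0.0012 for Ncf1 to Ncf4 and from -0.0058 to 0.028 for Ncf1 to Cybb, and changed sign without C2 (0.0012 and -0.0022) and, for Ncf1 to Cybb, without B2plus (-0.0058).

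With the letters A, B and C as a replicate block in the 3SL-labelled against untreated-labelled comparison, 402 genes were called higher and 549 lower and no member's call changed. The letters were not taken to pair the libraries, since deviations of same-letter libraries correlated at -0.0167 to 0.0424. The 3 libraries per group, from sources the labels do not tell apart, limit every p-value, and the smallest of the ratio tests is 0.1.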
